A study of Homo sapiens with 8 samples.

Results

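Docetaxel-resistant PC3 cells were compared with docetaxel-resistant DU145 cells, and the differences between these lines were set beside those already present between their sensitive parents. The members are the 4 bulk RNA-sequencing libraries whose titles carry the resistant label, 2 of PC3 and 2 of DU145, out of 8 libraries in the series. The other 4 libraries are sensitive PC3 and sensitive DU145, again with 2 libraries each, and they serve as the baseline. PC3 and DU145 are established human prostate cancer cell lines that grow without androgen. Each was represented by a docetaxel-sensitive culture and by a resistant variant of the same line. Resistant cells were kept in medium with 10 nM docetaxel, and sensitive cells in medium with 0.1% DMSO. All were grown in the same serum-containing medium, and libraries were made with a SMART-seq mRNA kit. How many clones each resistant variant descends from, and whether docetaxel was withdrawn before these bulk libraries were made, is not stated in the labels or methods. Each line had its own resistant variant, so a feature of resistance in a line and a feature of that particular variant cannot be told apart.

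Docetaxel binds beta-tubulin in assembled microtubules, stops their turnover and arrests dividing cells in mitosis. Cells can withstand it by pumping the drug out through ABC transporters, by changing tubulin isotypes or microtubule-binding proteins, by raising the threshold for apoptosis, and by moving along the epithelial to mesenchymal axis. PC3 and DU145 are known to differ from the start, as PC3 lacks alpha-catenin through deletion.

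Library totals ran from 31685148 to 43045127 counts, and those of the 4 resistant libraries from 34222903 to 43045127. The resistant PC3 libraries carried a mark of their name, near absence of alpha-catenin RNA, which by itself does not identify DU145. CTNNA1, which encodes alpha-catenin, stood at 559 and 547 CPM (a gene's counts scaled to a common library size) in the 2 resistant DU145 libraries and at 2.06 and 2.12 CPM in the 2 resistant PC3 libraries. The prostate luminal gene KLK3 was at 0 counts in all 8 libraries. The 7 immune markers summed to 1.12 and 1.33 CPM in resistant DU145 and to 2.74 and 8.77 CPM in resistant PC3, with CD3E at 0 in every library. LYZ made up 5.76 CPM of the sum of 8.77 CPM, and PTPRC read 0.179 and 0.126 CPM in resistant PC3. The 7 fibroblast markers summed to 7.39 and 6.11 CPM in resistant DU145 and to 26.5 and 34.6 CPM in resistant PC3. Most of this was COL1A1 (5.97 and 4.89 CPM in resistant DU145, 23.7 and 28.9 CPM in resistant PC3). COL3A1 and PDGFRA were also higher in resistant PC3, and COL1A2 was lower (0.426 and 0.404 CPM against 1 and 0.5 CPM in resistant DU145). DCN, LUM and PDGFRB read at most 0.404 CPM in any resistant library. The 5 endothelial markers summed to 0.454 and 0.334 CPM in resistant DU145 and to 20.6 and 49.4 CPM in resistant PC3, nearly all of it PECAM1 (12.6 and 24.4 CPM) and KDR (7.13 and 24.3 CPM). The part of other cells in the line differences was not tested. In bulk RNA, fewer cells that express a gene and less RNA per cell cannot be told apart. Nothing in the labels shows whether both libraries of a group were grown separately, and the p-values therefore measure only the spread between these libraries, which may be technical.

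Nearly as many genes differed between the resistant lines as between the sensitive lines. Of 20238 genes tested, 6155 were higher in resistant PC3 than in resistant DU145 (30.4% of the genes tested) and 5327 were higher in resistant DU145 (26.3%), at an adjusted p under 0.05 in edgeR's quasi-likelihood test. Between the sensitive lines 5796 genes (28.6%) were higher in PC3 and 5901 (29.2%) in DU145. A difference of at least 2-fold was called for 7815 genes between the resistant lines and for 7942 between the sensitive lines. The median absolute log2 difference over all tested genes was 0.806 between the resistant lines and 0.839 between the sensitive lines, with SDs across genes of 1.95 and 1.96. Library by library, the root mean square log2 distance ran from 1.96 to 2.03 between resistant PC3 and resistant DU145, and from 1.98 to 2 between sensitive PC3 and sensitive DU145. The ranges of these distances overlapped. Sensitive and resistant libraries of a line were 1.06 to 1.17 apart in DU145 and 1.36 to 1.42 apart in PC3, and libraries of the same group 0.506 to 0.591 apart.

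**Figure D1:**
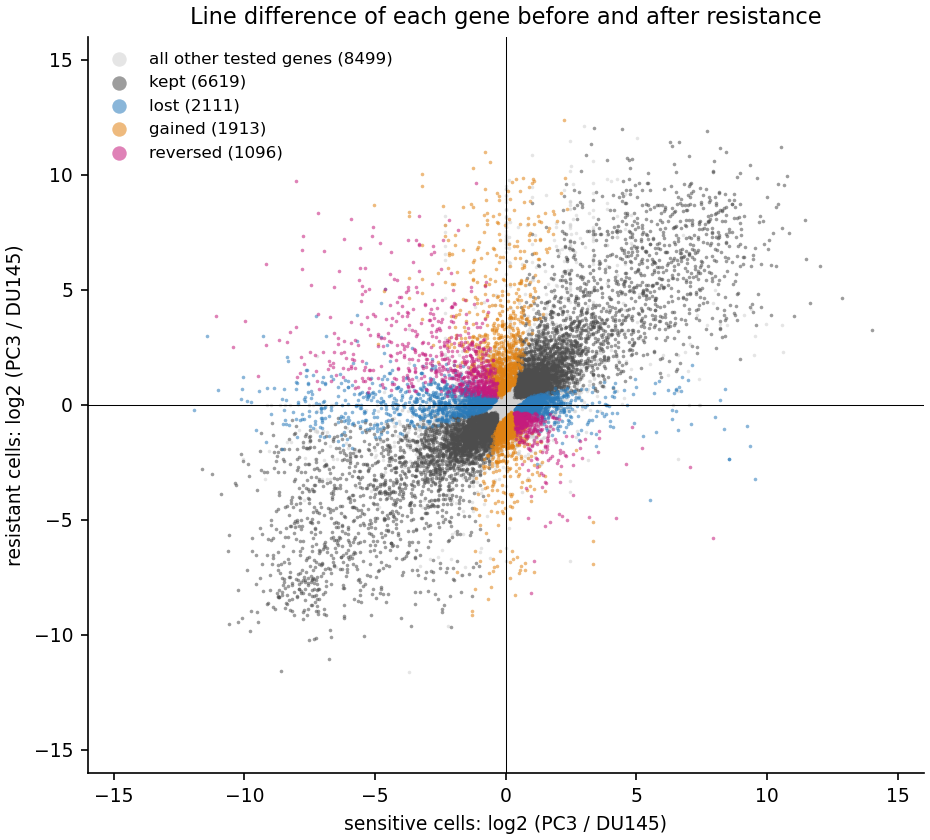
Each point is a tested gene, with its log2 ratio of PC3 to DU145 in sensitive cells on the horizontal axis and in resistant cells on the vertical axis, coloured by class. The 6619 kept differences lie along the rising diagonal, the 2111 lost ones along the horizontal axis, the 1913 gained ones along the vertical axis and the 1096 reversed ones in the other two quadrants.

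Behind these similar totals, many genes differed in their class. A test of the change itself, the resistant line difference minus the sensitive line difference, was called for 6951 genes (34.3% of those tested), 3743 toward PC3 and 3208 toward DU145. Line differences called in both variants with the same sign were counted as kept, and there were 6619 of them (32.7% of the genes tested). Among these, 827 had widened, 895 had narrowed, and for 4897 the change was not called. Differences called with opposite signs were counted as reversed: 1096 genes (5.42%), of which 705 turned from higher in DU145 to higher in PC3 and 391 turned the other way. A difference was counted as lost where it was called only between the sensitive lines and the change was called too, which held for 2111 genes (10.4%). For 1415 of the lost differences the 95% interval of the resistant difference lay inside a 2-fold change in either direction. Gained differences, called only between the resistant lines with the change called, numbered 1913 (9.45%), with 1006 higher in PC3 and 907 higher in DU145. Of the sensitive line differences, 56.6% were kept, 18% were lost and 9.37% reversed, and of the resistant line differences 16.7% were gained. A further 1871 genes were called only between the sensitive lines and 1854 only between the resistant lines without a called change, and these were counted in neither group.

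More of the lost and gained differences went with a called change in PC3 alone than in DU145 alone, as in most other classes. Resistant and sensitive cells of PC3 alone differed for 882 of the lost genes, those of DU145 alone for 623, those of both lines for 372 and those of neither line for 234. For gained genes the split was 839 in PC3 alone, 560 in DU145 alone, 345 in both and 169 in neither. This lean was not particular to them: 346 of the widened differences had a change called in PC3 alone and 242 in DU145 alone. For narrowed differences these counts were 373 and 274, and for kept differences without a called change 753 and 497. Among reversed differences the largest group had a called change in both lines, with 579 genes called in both lines, 323 in PC3 alone and 194 in DU145 alone. In 373 of the genes that turned toward PC3, the level was lower in resistant than sensitive DU145 and higher in resistant than sensitive PC3. The opposite pair of moves was seen in 177 of those that turned toward DU145. These within-line contrasts use the same libraries as the classes and describe them. With each library left out in turn, 84 of the 101 genes described here by class kept their class in all 8 fits: 42 of 43 kept, 24 of 28 reversed, 9 of 18 lost and 9 of 12 gained. The other 17 are pointed out where they are described.

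**Figure D2:**
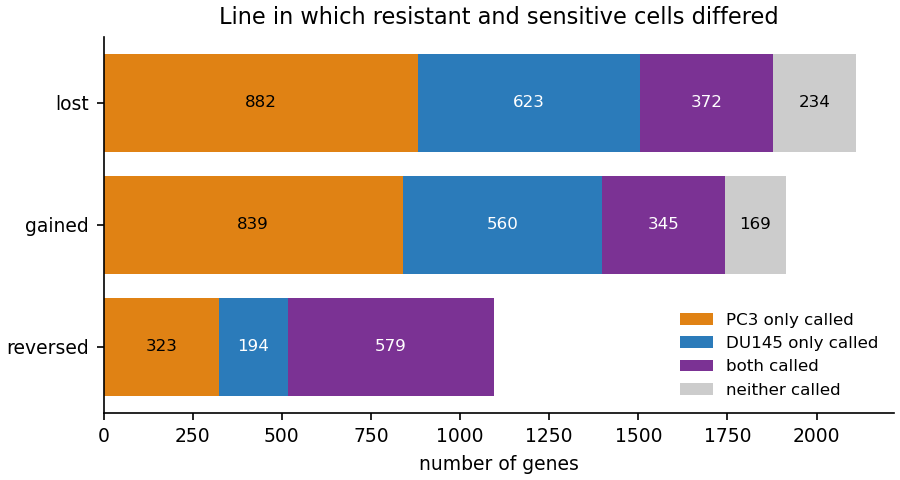
Bars give the number of genes in the lost, gained and reversed classes, divided by whether resistant and sensitive cells differed in PC3 only, in DU145 only, in both lines or in neither. PC3-only changes make up the largest segment of the lost (882) and gained (839) classes, and changes in both lines the largest of the reversed class (579).

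Kept differences included genes that were high in a single line in sensitive and resistant cells alike. COL6A3, a chain of collagen VI, stood at 1.18 and 1.11 CPM in resistant DU145 and at 412 and 562 CPM in resistant PC3, against 1.35 and 1.16 CPM and 442 and 571 CPM in the sensitive lines. The log2 line difference (PC3 over DU145, ± SE here and below) was 8.73 ± 0.26 in resistant cells and 8.66 ± 0.26 in sensitive cells. The change between these differences was not called (adjusted p 0.899). PAFAH1B3, a catalytic subunit of platelet-activating factor acetylhydrolase, lay on the DU145 side, at 34.2 and 37.4 CPM in resistant DU145 and 0.112 and 0.0758 CPM in resistant PC3, a log2 difference of -8.51 ± 0.34. TKTL1, a relative of the pentose phosphate enzyme transketolase, was likewise low in PC3, at 28.7 and 30.3 CPM against 0.0449 and 0.101 CPM after resistance. UCHL1, a neuronal ubiquitin hydrolase, read 867 and 735 CPM in resistant DU145 and 2.8 and 2.86 CPM in resistant PC3, with log2 differences of -8.14 ± 0.26 in resistant and -8.09 ± 0.26 in sensitive cells.

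Genes that reversed included secreted ligands. BMP7, a bone morphogenetic protein ligand (chr20:57168753-57266641 of hg38), stood at 17.9 and 16.7 CPM in sensitive DU145 and 0.457 and 0.259 CPM in sensitive PC3. In resistant cells the order was the opposite, with 0.182 and 0.444 CPM in DU145 and 20.7 and 18.3 CPM in PC3. The log2 line difference went from -5.57 ± 0.36 to 5.93 ± 0.36 (adjusted p 3e-07 for the resistant lines), and the lines had in effect swapped levels. HSPB8, a small heat shock protein of the autophagy machinery, showed the same exchange: 15.3 and 12.6 CPM in sensitive DU145 and 0.305 and 0.486 CPM in sensitive PC3, then 0.121 and 0.111 CPM and 18.2 and 21 CPM in the resistant lines. CALB2, the calcium-binding protein calretinin, was at 1.27 and 1.28 CPM in resistant DU145 and 27.1 and 31.6 CPM in resistant PC3 after a sensitive difference of -5.53 ± 0.41. In the other direction, DSC3, a desmosomal cadherin, rose to 171 and 124 CPM in resistant DU145 from 9.93 and 7.81 CPM in sensitive DU145, whereas PC3 fell from 55.4 and 50.7 CPM to 24.4 and 23 CPM. THBS1, the matricellular protein thrombospondin 1, moved the same way and read 550.4 and 357 CPM in resistant DU145 against 150.5 and 66.1 CPM in resistant PC3, a log2 difference of -2.07 ± 0.33 after 2.2 ± 0.33 at baseline.

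Lost differences were those no longer called between the resistant lines, which does not show that the levels were equal. The genes named here were picked among those whose resistant 95% interval lay inside a 2-fold change, 1415 of the 2111 lost genes. Their close resistant levels were thus part of the choice. BMI1, a Polycomb protein tied to self-renewal, read 35.7 and 27.8 CPM in sensitive DU145 and 306 and 327 CPM in sensitive PC3, and then 103 and 97 CPM and 101 and 110.0 CPM in the resistant lines. Its resistant difference was 0.08 ± 0.15 (95% interval -0.24 to 0.40), with DU145 having risen and PC3 having fallen. IGFBP3, which binds insulin-like growth factors, met in the same manner at 142 and 118 CPM in resistant DU145 and 132 and 129 CPM in resistant PC3, from 45.8 and 25.5 and 386 and 653 CPM. TGFB1I1, a focal adhesion adaptor, met at 22.9 and 17.3 CPM and 18.7 and 20.8 CPM, DU145 having risen from 1.18 and 1.3 CPM and PC3 having fallen from 30.2 and 32.4 CPM. Among genes that had been higher in DU145, COBL, an actin nucleator, met at 25.1 and 16.2 CPM in resistant DU145 and 21.2 and 25.5 CPM in resistant PC3, the sensitive levels having been 82.7 and 74.2 and 0.396 and 0.357 CPM. CTDSPL, a phosphatase, stood at 21.8 and 18.8 and 24.5 and 25.7 CPM in the resistant lines after a sensitive log2 difference of -7.47 ± 0.25. For ZIC2, a zinc finger transcription factor, only PC3 moved: 0.122 and 0.0973 CPM in sensitive and 16.4 and 9.07 CPM in resistant PC3, against 9.9 and 9.53 and 10.5 and 9.11 CPM in DU145. COBL counted as reversed without the first resistant DU145 library, and ZIC2 without the second resistant PC3 library.

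Gained differences included genes near 0 in all groups but resistant PC3, and genes near 0 in resistant PC3 alone. EYA2, a transcriptional coactivator with phosphatase activity, was at 34.1 and 33 CPM in resistant PC3 and at 0.0303 and 0.0833 CPM in resistant DU145, and did not exceed 0.141 CPM in any sensitive library. TCN1, a vitamin B12-binding protein, appeared in resistant PC3 as well, but its libraries differed widely, at 44.7 and 236 CPM, against 0.273 and 0.167 CPM in resistant DU145. SDHAF3, an assembly factor of succinate dehydrogenase, showed the opposite pattern of a gene low in resistant PC3 alone (0.0673 and 0.101 CPM), with 26.9 and 26 CPM in resistant DU145, 29.4 and 27.2 CPM in sensitive DU145 and 35.7 and 36.5 CPM in sensitive PC3. MYL9, the regulatory light chain of smooth muscle and non-muscle myosin, parted in both directions, from 89.5 and 58.9 to 756 and 333 CPM in DU145 and from 60.7 and 55.6 to 5.61 and 2.83 CPM in PC3. NPTX1, a neuronal pentraxin, did the same and ended at 20.5 and 50.7 CPM in resistant DU145 and 0.359 and 0.177 CPM in resistant PC3. The choice of these genes required resistant libraries of the 2 lines that did not overlap and a sensitive difference under 2-fold, so neither trait is a result.

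**Figure D3:**
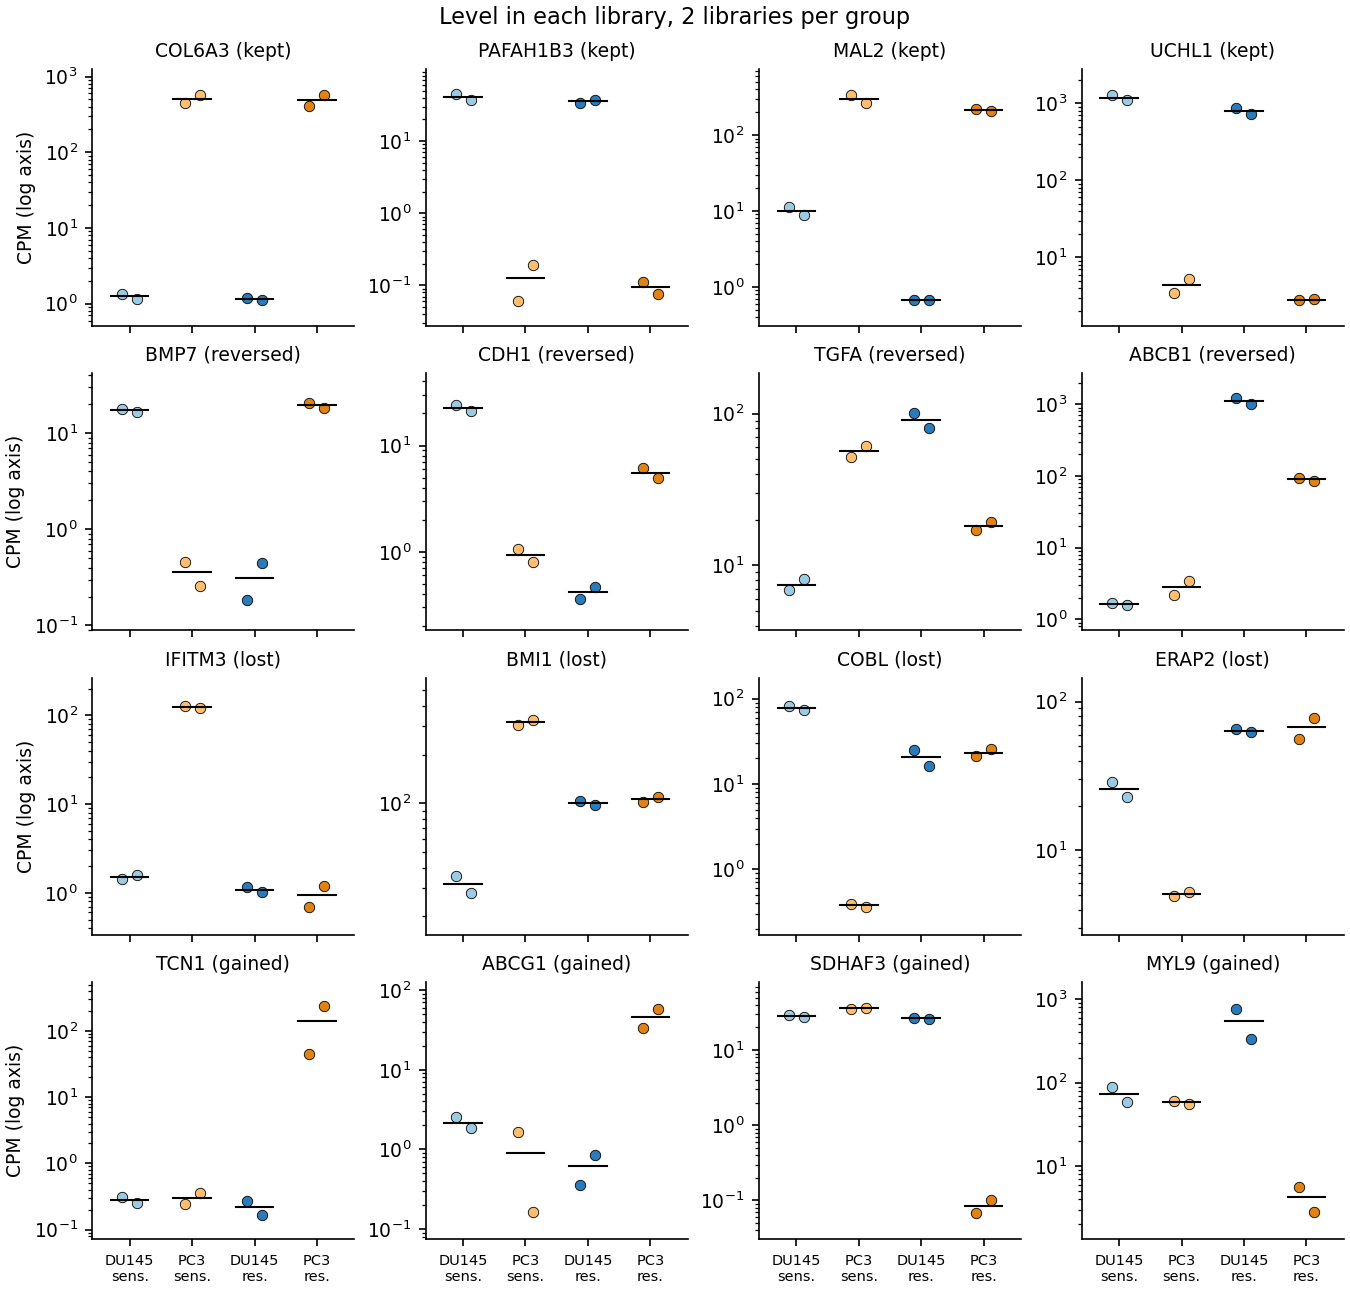
Each panel shows a gene's CPM on a log axis in sensitive DU145, sensitive PC3, resistant DU145 and resistant PC3, with a point per library and a bar at the group mean. The top row holds kept, the second reversed, the third lost and the bottom row gained differences: BMP7 swaps sides, the resistant BMI1 levels lie side by side and SDHAF3 is low only in resistant PC3.

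Gene groups were described by the number of tested members on each side, to be read against 30.4% of all genes called higher in resistant PC3 and 26.3% called higher in resistant DU145, and against medians over all genes of 0.0261 in resistant and -0.031 in sensitive cells. The median changed sign in some groups, came closer to 0 in others and stayed about where it was in others, while members of a group fell into different classes.

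**Figure D4:**
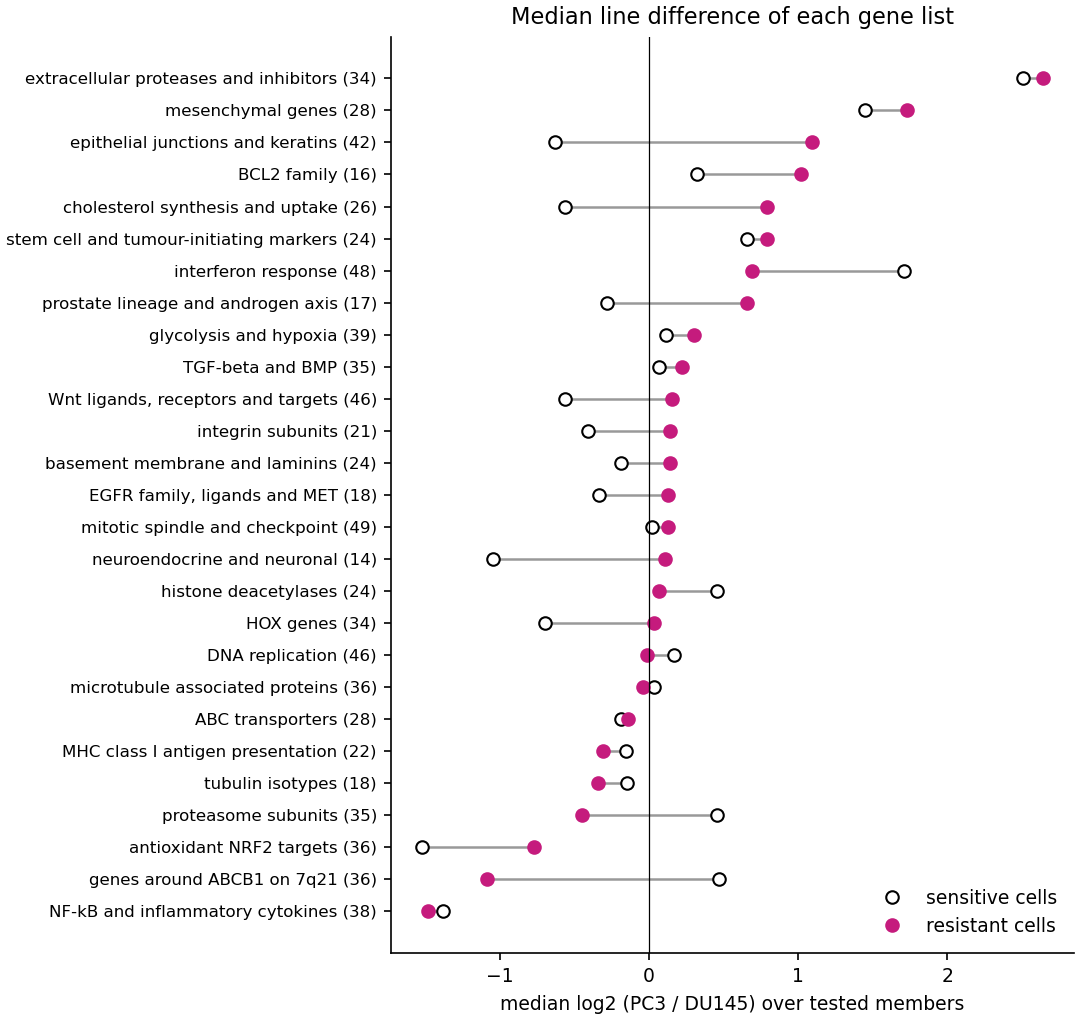
For each gene list, the open circle marks the median log2 ratio of PC3 to DU145 over its tested members in sensitive cells and the filled circle the median in resistant cells, with the number of members in parentheses. Epithelial genes (-0.632 to 1.09), cholesterol genes (-0.561 to 0.79), proteasome subunits (0.455 to -0.447) and the genes around ABCB1 (0.472 to -1.09) cross 0, whereas proteases and NF-kB genes stay at their side.

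More epithelial junction and keratin genes were higher in resistant PC3 than in resistant DU145, the opposite of the sensitive lines. Of 42 tested, 23 were higher in resistant PC3 and 10 in resistant DU145, where the sensitive lines had 11 and 23, and the median log2 difference went from -0.632 to 1.09 (1.02 with genes absent from a group set at their detection limit of 3 counts per group). Reversal toward PC3 was called for 11 members, or 9 to 11 with any single library left out, reversal toward DU145 for DSC3 alone, and 14 differences were kept. CDH1, which encodes E-cadherin, stood at 24.2 and 20.9 CPM in sensitive DU145 and 1.07 and 0.811 CPM in sensitive PC3. In resistant cells it was at 0.364 and 0.472 CPM in DU145 and 6.12 and 4.95 CPM in PC3, a log2 difference of 3.71 ± 0.3. CDH1 thus fell in DU145 and rose in PC3. CDH3, or P-cadherin, fell in DU145 from 174 and 139 to 5.61 and 3.55 CPM and rose in PC3 from 1.68 and 1.17 to 20.4 and 13.3 CPM. DSP, the desmosomal plaque protein desmoplakin, reached 173 and 155 CPM in resistant PC3 from 2.38 and 1.36 CPM and stood at 43.3 and 60.3 CPM in resistant DU145. ESRP1, a splicing factor of epithelial cells, was at 60.1 and 50.8 CPM in resistant PC3 against 0.455 and 0.694 CPM in resistant DU145. KRT8, a simple epithelial keratin chosen after its values were seen, read 28.2 and 29.7 CPM in resistant DU145 and 235 and 224 CPM in resistant PC3. Kept on the PC3 side throughout were MAL2, a protein of apical transport, and PKP1, a desmosomal plakophilin, with resistant log2 differences of 8.34 ± 0.24 and 8.13 ± 0.23.

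Mesenchymal genes stayed on the PC3 side for the most part: 14 of 28 tested were higher in resistant PC3 and 6 in resistant DU145, against 16 and 5 in sensitive cells, with medians of 1.73 and 1.45. CDH2, or N-cadherin, was at 0.333 and 0.583 CPM in resistant DU145 and 132 and 93.5 CPM in resistant PC3, and CDH11, another mesenchymal cadherin, at 0.546 and 0.694 CPM and 368 and 329 CPM. Resistant PC3 thus held RNA of both CDH1 and CDH2, and resistant DU145 had little of either. COL5A1, a fibrillar collagen chain, widened its gap to a log2 difference of 7.91 ± 0.27. Going the other way, and named after their values were seen, were the repressor of CDH1 ZEB2 and the intermediate filament vimentin. ZEB2 stood at 14.6 and 13 CPM in resistant DU145 and 2.62 and 1.54 CPM in resistant PC3 after 3.39 and 2.54 and 6.25 and 7.33 CPM at baseline. VIM reversed by a smaller step, from a log2 difference of 0.56 ± 0.15 to -0.91 ± 0.15.

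Basement membrane genes split between the lines, with 10 of 24 higher in resistant PC3 and 8 in resistant DU145. NID1, the laminin-binding protein nidogen 1 (chr1:235975830-236065109 of hg38), was at 105 and 91 CPM in resistant DU145 and 0.359 and 0.303 CPM in resistant PC3, from 38 and 29.3 and 65.3 and 67.5 CPM in the sensitive lines. LAMA1, a laminin chain, went the opposite way and read 29.5 and 13.2 CPM in resistant DU145 and 82.3 and 60.1 CPM in resistant PC3. NID2 kept its DU145 side, with a log2 difference of -5.94 ± 0.37. Integrins, the receptors for these proteins, were also divided, 8 of 21 being higher in resistant PC3 and 6 in resistant DU145. ITGB8 widened to a log2 difference of 6.56 ± 0.43 on the PC3 side and ITGAV, its partner chain, to -2.35 ± 0.15 on the DU145 side. The ITGB8 difference counted as gained without the second sensitive DU145 or the first sensitive PC3 library, where its sensitive difference was 0.79 (adjusted p 0.107) and 0.54 (adjusted p 0.217).

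Extracellular proteases and their inhibitors stayed on the PC3 side: 25 of 34 tested were higher in resistant PC3 and 7 in resistant DU145, with medians of 2.64 in resistant and 2.51 in sensitive cells, and 26 of the 34 differences were kept. SPOCK1 and ADAMTS1, a matrix proteoglycan and a secreted metalloprotease, held log2 differences of 7.81 ± 0.32 and 6.62 ± 0.29. PLAU, the urokinase activator of plasminogen, chosen after its values were seen, stood at 266 and 230.5 CPM in resistant DU145 and 3127 and 2838 CPM in resistant PC3. SLPI, a secreted inhibitor of leukocyte proteases, reversed from -3.3 ± 0.41 to 5.81 ± 0.52, with 0.273 and 0.333 CPM in resistant DU145 and 9.04 and 25.4 CPM in resistant PC3.

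Interferon response genes had been higher in sensitive PC3 and lost part of that lead. Of 48 tested, 25 were higher in resistant PC3 and 9 in resistant DU145, against 36 and 3 in the sensitive lines, and the median fell from 1.71 to 0.688. The change was called toward DU145 for 22 members and toward PC3 for 5, or 3 without the first resistant DU145 library or the second sensitive PC3 library. IFITM3, a membrane protein that blocks virus entry (chr11:319676-329475 of hg38), lost its difference. It stood at 126 and 121 CPM in sensitive PC3 and 1.43 and 1.58 CPM in sensitive DU145. In resistant cells it was at 0.696 and 1.19 CPM in PC3 and 1.15 and 1.03 CPM in DU145. The near-identical IFITM genes may share reads, and the line difference of IFITM2 moved the opposite way, by 3.13 toward PC3. GBP1, a GTPase induced by interferon, met at 2.79 and 0.805 CPM in resistant DU145 and 1.08 and 1.49 CPM in resistant PC3. ISG15, a ubiquitin-like modifier chosen after its values were seen, narrowed from a log2 difference of 4.5 ± 0.16 to 1.45 ± 0.14. LGALS3BP, a secreted galectin ligand, widened instead, to 4.39 and 3 CPM in resistant DU145 and 442 and 504 CPM in resistant PC3, and the interferon-inducible genes GBP3 and SAMD9L kept differences of 4.74 ± 0.26 and 5.23 ± 0.55.

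Many promoters of these genes share a sequence feature that the measurements did not use. Bases read from the RefSeq promoter table (GRCh38.p14) are shown for 4 members, to set lost differences (IFITM3, GBP1) beside a narrowed (ISG15) and a widened difference (LGALS3BP). Each is the 250 bases before the annotated gene start, 5′ to 3′ on the gene's strand, with matches to TTTCNNTTT, the core of the interferon-stimulated response element, on either strand in capitals (overlapping matches run together).
IFITM3 (chr11:320861-321110, minus strand): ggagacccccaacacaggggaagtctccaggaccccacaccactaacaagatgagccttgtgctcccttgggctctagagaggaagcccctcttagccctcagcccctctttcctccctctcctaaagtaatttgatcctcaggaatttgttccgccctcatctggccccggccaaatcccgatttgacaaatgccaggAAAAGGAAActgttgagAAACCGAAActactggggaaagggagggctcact
GBP1 (chr1:89065209-89065458, minus strand): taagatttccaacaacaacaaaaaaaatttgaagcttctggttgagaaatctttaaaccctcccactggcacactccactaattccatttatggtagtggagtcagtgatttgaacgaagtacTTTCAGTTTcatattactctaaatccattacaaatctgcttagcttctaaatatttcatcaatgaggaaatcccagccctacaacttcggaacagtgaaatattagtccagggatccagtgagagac
ISG15 (chr1:1013247-1013496, plus strand): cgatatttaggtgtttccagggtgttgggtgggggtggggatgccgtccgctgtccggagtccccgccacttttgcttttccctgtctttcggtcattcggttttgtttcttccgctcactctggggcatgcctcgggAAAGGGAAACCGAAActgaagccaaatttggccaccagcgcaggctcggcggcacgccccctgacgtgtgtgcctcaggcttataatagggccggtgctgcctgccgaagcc
LGALS3BP (chr17:78979924-78980173, minus strand): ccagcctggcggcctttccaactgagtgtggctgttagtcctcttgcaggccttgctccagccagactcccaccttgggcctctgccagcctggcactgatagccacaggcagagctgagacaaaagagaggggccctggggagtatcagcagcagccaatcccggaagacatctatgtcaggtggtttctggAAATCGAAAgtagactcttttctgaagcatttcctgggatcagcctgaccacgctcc
The motif was found in 32 of the 49 windows that the table holds for 37 of the 48 members (65.3%), and in 9.2% of all 35116 windows. It was present in 5 of 6 windows of lost members, 17 of 25 windows of kept members, 4 of 9 windows of gained members and 1 of 2 windows of reversed members. A match is a stretch of letters and does not show that a factor was bound.

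More antigen presentation and NF-kB genes were higher in DU145 than in PC3. Of 22 genes of MHC class I presentation, 5 were higher in resistant PC3 (2 without the second resistant PC3 library and 3 without the second resistant DU145 library) and 10 in resistant DU145. HLA-B, a class I heavy chain whose reads may be shared with its relatives, narrowed from a log2 difference of -3.39 ± 0.16 to -0.84 ± 0.14 as PC3 rose from 32.8 and 31.6 to 131 and 155 CPM. ERAP2, a peptidase that trims class I peptides, lost its difference, with 65.3 and 62.2 CPM in resistant DU145 and 56.2 and 78.1 CPM in resistant PC3. NF-kB and inflammatory genes held their side: 24 of 38 tested were higher in resistant DU145 and 8 in resistant PC3, with medians of -1.48 in resistant and -1.38 in sensitive cells, and 27 differences were kept. TNFAIP2, induced by tumour necrosis factor, stood at 383 and 370.4 CPM in resistant DU145 and 23.5 and 22 CPM in resistant PC3. TRAF1, a signal adaptor of its receptor, held a log2 difference of -5.75 ± 0.45. IL1B, the inflammatory cytokine, was among the 8 on the PC3 side, at 0.424 and 0.666 CPM in resistant DU145 and 131 and 318 CPM in resistant PC3.

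Fewer antioxidant genes controlled by NRF2 were higher in DU145 after resistance. DU145 had been higher for 30 of 36 members and PC3 for 3, and after resistance DU145 was higher for 20 and PC3 for 7, with the median going from -1.52 to -0.774. The change was called toward PC3 for 17 members. AKR1C1, an aldo-keto reductase, reversed from 104 and 107 CPM in sensitive DU145 and 1.65 and 2.89 CPM in sensitive PC3 to 0.0909 and 0.278 CPM and 2.18 and 2.17 CPM in the resistant lines, though reads may be shared with AKR1C2 and AKR1C3. GPX2, a glutathione peroxidase, fell in DU145 from 14.5 and 10.1 CPM to 0.364 and 0.0555 CPM, with resistant PC3 at 0.224 and 0.48 CPM, and its lost difference counted as reversed without the first resistant DU145 library. AKR1B1, aldose reductase, kept its DU145 side with a log2 difference of -5.76 ± 0.33.

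More cholesterol synthesis and uptake genes were higher in resistant PC3 than in resistant DU145, the opposite of the sensitive lines. Between the sensitive lines 3 of 26 were higher in PC3 and 11 in DU145, and between the resistant lines 14 were higher in PC3 and 2 in DU145, with medians of -0.561 and 0.79. The first resistant PC3 library was above the second for each member named here, and without it 8 members were higher in PC3. SREBF2, the transcription factor that drives this pathway, lost its difference and stood at 102 and 164 CPM in resistant DU145 and 230.3 and 173 CPM in resistant PC3, after 255 and 367 and 75.3 and 74.5 CPM in the sensitive lines. Both resistant PC3 libraries lay above both resistant DU145 libraries, and SREBF2 counted as reversed in 4 of the 8 fits with a library left out: either sensitive DU145 library, the second resistant DU145 or the second resistant PC3 library. MVD, an enzyme of the mevalonate pathway, reversed from -0.88 ± 0.2 to 1.68 ± 0.2. IDI1, which isomerises its product, reversed as well, to 1.02 ± 0.25 in resistant cells, a call that was lost without the first resistant PC3 library (log2 difference 0.63, adjusted p 0.057), where it counted as lost.

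Among drug transporters, ABCB1, the P-glycoprotein pump for which docetaxel is a substrate (chr7:87503017-87713323 of hg38, minus strand), is described for its known role with this drug. It was low in both sensitive lines, at 1.68 and 1.58 CPM in DU145 and 2.19 and 3.47 CPM in PC3. In resistant cells it stood at 1218 and 1011 CPM in DU145 and 94.8 and 84.4 CPM in PC3. It was thus higher in both resistant lines than in either sensitive line, and the small sensitive lead of PC3 (0.79 ± 0.24) reversed to a log2 difference of -3.64 ± 0.2 (adjusted p 1.5e-07), 12.4-fold higher in DU145. The sensitive lead was not called without the second sensitive DU145 library (0.73, adjusted p 0.0846) or the second sensitive PC3 library (0.44, adjusted p 0.196), and the ABCB1 difference then counted as gained. Over 28 ABC transporters, 6 were higher in resistant PC3 and 11 in resistant DU145, against 7 and 12 in the sensitive lines. ABCC2, a pump of conjugated compounds, narrowed from 359 and 337 CPM in sensitive DU145 to 10.2 and 10.2 CPM in resistant DU145, with resistant PC3 at 1.3 and 1.54 CPM. ABCG1, a sterol exporter, was gained by PC3, at 32.9 and 58.3 CPM against 0.364 and 0.861 CPM in resistant DU145, and counted as reversed without the first sensitive PC3 library.

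Most genes that neighbour ABCB1 on chromosome 7 band q21 shifted toward DU145. Of 36 tested, 24 were higher in resistant DU145 and 9 in resistant PC3, where the sensitive lines had 8 and 17, and the median went from 0.472 to -1.09. The change was called toward DU145 for 24 members and toward PC3 for 4. Reversal toward DU145 was called for 11, and for 7 without the second sensitive DU145 library. SLC25A40, a mitochondrial carrier next to ABCB1, stood at 435 and 376 CPM in resistant DU145 and 26.8 and 24.6 CPM in resistant PC3, from 47.6 and 45.2 and 25.1 and 25.1 CPM. CDK6, a kinase that drives entry into S phase, reversed from a log2 difference of 2.86 ± 0.16 to -1.56 ± 0.15, with 279.9 and 265 CPM in resistant DU145. RUNDC3B, on the opposite strand and overlapping ABCB1, read 15.9 and 21 CPM in resistant DU145 and 0.135 and 0.101 CPM in resistant PC3. The labels and methods do not say whether counting used strand, so reads of RUNDC3B and ABCB1 may be mixed, which was not tested. In PC3, RUNDC3B was lower in resistant than in sensitive cells (0.518 and 0.551 CPM in sensitive PC3), while ABCB1 was higher.

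Tubulins, the family that docetaxel binds, were mixed. Of 18 tubulins, 3 were higher in resistant PC3 (5 without the first resistant DU145 library) and 6 in resistant DU145. TUBB6, a beta-tubulin, kept a log2 difference of -1.69 ± 0.24. TUBB2B, a neuronal beta-tubulin with close relatives, lost its difference, standing at 13 and 21.7 CPM in resistant DU145 and 32.1 and 24.1 CPM in resistant PC3 after 5.36 and 5.42 and 0.122 and 0.551 CPM. TUBA4A, an alpha-tubulin, met at 58.8 and 42.9 and 41.4 and 39.3 CPM from 26.2 and 23.6 and 125 and 105 CPM. For TUBB2B both resistant PC3 libraries lay above both resistant DU145 libraries, and its difference counted as reversed without the second resistant DU145 library or without either sensitive PC3 library, as that of TUBA4A did without the second resistant DU145 library. Microtubule-associated proteins were divided evenly, 11 of 36 higher in resistant PC3 and 13 in resistant DU145. MAP2, a neuronal stabiliser of microtubules, narrowed from a log2 difference of -6.96 ± 0.36 to -2.66 ± 0.28, and MAP7D3, a microtubule binder, widened to -4.32 ± 0.28.

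More proteasome subunits were higher in resistant DU145 than in resistant PC3, the opposite of the sensitive lines. In sensitive cells 19 of 35 were higher in PC3 and 5 in DU145, and in resistant cells 5 were higher in PC3 and 19 in DU145, with medians of 0.455 and -0.447. The resistant count rested on small differences: 10 were higher in DU145 without the first resistant DU145 library, 12 without the second resistant PC3 library, and 3 higher in PC3 without the second resistant DU145 library. The change was called toward DU145 for 19 and toward PC3 for 1, and toward DU145 for 11 without either the second sensitive DU145, the first resistant DU145 or the first sensitive PC3 library. PSMD11, a regulatory particle subunit, was gained by DU145, at 561 and 452 CPM against 169.6 and 155 CPM in resistant PC3. PSMD13, of the same particle, reversed from 0.68 ± 0.15 to -0.62 ± 0.15. PSMC6, an ATPase subunit, lost its PC3 lead, with 144 and 111 CPM in resistant DU145 and 103 and 104 CPM in resistant PC3, and PSMA6, a core subunit, kept a log2 difference of -1.96 ± 0.17. PSMD11 counted as kept without the second sensitive DU145 library, and PSMC6 as reversed without the second resistant DU145 library.

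The BCL2 family holds proteins that restrain apoptosis and proteins that promote it. Of 16 members, 11 were higher in resistant PC3 and 3 in resistant DU145, against 7 and 6 in sensitive cells, and the median went from 0.324 to 1.02. BCL2L1, which encodes the anti-apoptotic BCL-XL, kept its PC3 side with a log2 difference of 1.63 ± 0.17. BCL2L2, its relative BCL-W, was gained at 56.8 and 53 CPM in resistant PC3 against 20.1 and 17.2 CPM in resistant DU145, and counted as kept without the second sensitive DU145 library. The pro-apoptotic BMF was gained too, at 15 and 15.4 CPM against 2.09 and 3.33 CPM, while MCL1, an anti-apoptotic member, widened on the DU145 side to -1.54 ± 0.14. Histone deacetylases and their partners had been higher in PC3 for 12 of 24 members and in DU145 for 3, and these counts were 6 and 5 between the resistant lines, with the median going from 0.456 to 0.0634. HDAC9 kept a log2 difference of 4.92 ± 0.28, HDAC7 lost its difference at 92.4 and 83 CPM in resistant DU145 and 84.8 and 89.4 CPM in resistant PC3, and SIRT5, a mitochondrial deacylase, stood higher in resistant PC3 by 1.41 ± 0.16. SIRT5 was counted as reversed, from -0.42 ± 0.16, but its sensitive difference was not called in 7 of the 8 fits with a library left out (all but that without the second resistant DU145 library), and it then counted as gained. Of 9 transcription factors that the study's network work named, 2 were higher in resistant PC3, 2 in resistant DU145 and 5 were not called. That work inferred activity of these factors in sensitive and resistant cells, whereas RNA is compared between lines here. ATF4, a stress response factor of this group, lost its difference at 234 and 263 and 319.6 and 249 CPM, and NFYB kept one of -1 ± 0.16.

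Growth factor ligands included several that changed places. TGFA, a ligand of the EGF receptor, stood at 6.87 and 8.1 CPM in sensitive DU145 and 52.1 and 61.6 CPM in sensitive PC3, and then at 101 and 79.9 CPM in resistant DU145 and 17.2 and 19.3 CPM in resistant PC3. HBEGF, another such ligand, reversed from 1.6 ± 0.22 to -1.58 ± 0.22, and AREG was gained by DU145 at 15.3 and 19.8 CPM against 2.65 and 4.25 CPM. EREG kept and widened its DU145 side, at 123 and 153 CPM against 1.03 and 1.44 CPM. All 4 ligands were thus higher in resistant DU145. Of the receptors of this family, ERBB2 kept a difference of -1.9 ± 0.13, and ERBB3 lost its own, with 14.8 and 21.7 CPM in resistant DU145 and 11.5 and 14.3 CPM in resistant PC3, but counted as kept without the first resistant DU145 library. Over the 18 genes of the family, 4 were higher in resistant PC3 and 5 in resistant DU145.

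More TGF-beta and BMP genes were higher in resistant PC3 than in resistant DU145, 14 of 35 tested against 7, after 12 and 13 between the sensitive lines. Members moved both ways: the change was called toward PC3 for 14 and toward DU145 for 10. The DU145 count was smaller without the first sensitive DU145 library. Lost differences numbered 9 of the 35, where 10.4% of all tested genes were lost. The members named here moved toward PC3. Besides BMP7, INHBA, the activin A subunit, widened from 16.7 and 26.1 to 155 and 201 CPM in PC3, with 1.33 and 0.361 CPM in resistant DU145. LTBP1, which anchors latent TGF-beta, widened to a log2 difference of 4.32 ± 0.27. Of 46 Wnt genes, 18 were higher in resistant PC3 and 12 in resistant DU145, against 10 and 24 in the sensitive lines, and the median went from -0.567 to 0.151. Reversal toward PC3 was called for 6 of them and toward DU145 for 0. AXIN2, a feedback target of the pathway, went from 13.8 and 9.28 to 0.697 and 1.36 CPM in DU145 and from 2.47 and 3.4 to 5.68 and 7.89 CPM in PC3. RNF43, a ubiquitin ligase that removes Wnt receptors, reversed from -6.71 ± 0.35 to 3.83 ± 0.3. Both are induced by Wnt signals in other settings, but activity of the pathway was not tested, and 12 of the 46 genes lay on the DU145 side.

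Identity genes of position and lineage were mixed. The HOX genes, which mark position along the body axis, were higher in PC3 for 11 of 34 and in DU145 for 11 between the resistant lines, against 8 and 16 in the sensitive lines. HOXB13, a prostate lineage factor, stayed on the PC3 side but narrowed from 418 and 344 to 43.2 and 64.2 CPM in PC3, with DU145 at 0.303 and 0.639 CPM. HOXB9 reversed, at 28.4 and 31.5 CPM in resistant DU145 and 126 and 106 CPM in resistant PC3, and HOXA9 kept a difference of 5.47 ± 0.25. NCAM1, a neural adhesion molecule used as a neuroendocrine marker, stood at 28.9 and 42 CPM in resistant PC3 and 0.212 and 0.0555 CPM in resistant DU145. It was counted as reversed from a sensitive lead of DU145, which was not called without the first sensitive DU145 library (-1.94, adjusted p 0.0932) or the second sensitive PC3 library (-1.64, adjusted p 0.137), and NCAM1 then counted as gained. CD24, a surface marker of tumour-initiating cells, reversed from -4.13 ± 0.37 to 1.55 ± 0.34, and NES, the progenitor filament nestin, widened to 6.31 ± 0.17. Of the glycolysis and hypoxia genes, 12 of 39 were higher in resistant PC3 and 10 in resistant DU145. SLC2A3, the glucose transporter GLUT3, fell in DU145 from 164 and 171 to 2.36 and 12.5 CPM and rose in PC3 from 0.366 and 0.227 to 10 and 14.6 CPM, while NDRG1, a gene of the hypoxia response, was gained by PC3 with a difference of 2.58 ± 0.47, and EPAS1, the hypoxia-inducible factor 2 alpha, widened to -2.87 ± 0.17 on the DU145 side. The lost SLC2A3 difference counted as reversed without the second resistant DU145 library.

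The shares of the classes differed between chromosomes. Chromosome 7 held the highest share of reversed differences, 11.5% of its 985 tested genes against 5.42% of all tested genes, and its change was called for 42.8% of genes against 34.3%. Of these reversed genes on chromosome 7, 95 turned toward PC3 and 18 toward DU145, so most of the chromosome's reversals ran opposite to those around ABCB1. For 65 of the 95, DU145 fell and PC3 rose. Chromosome X held the highest share of lost differences, 17.8% of 590 genes against 10.4% of all tested genes, and 88 of these had been higher in PC3 and 17 in DU145. Chromosome 20 held the highest share of kept differences, 47.7% of 558 genes against 32.7% of all tested genes, with 242 higher in PC3 and 24 higher in DU145. Neighbouring genes on a chromosome can share a copy number, which may differ between its segments, so genes of a chromosome are not independent. DNA copy number was not measured in these libraries, and its part was not tested.

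**Figure D5:**
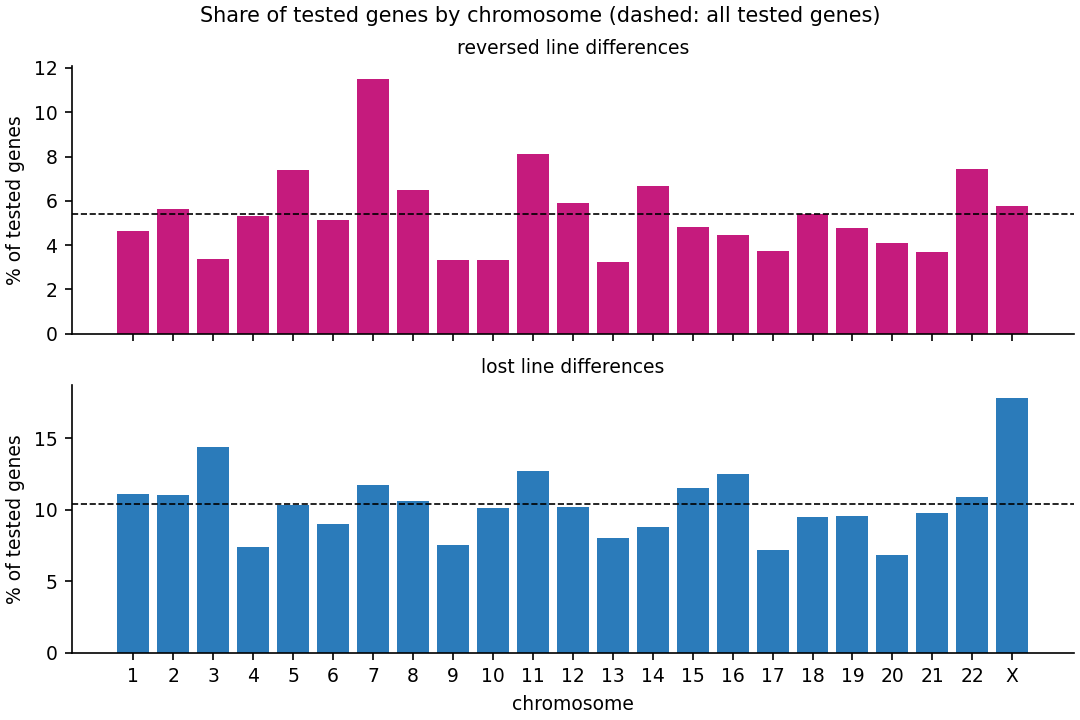
Bars give, for each chromosome, the percentage of tested genes whose line difference was reversed (top) or lost (bottom), with the dashed line at the percentage over all tested genes (5.42% and 10.4%). Chromosome 7 stands highest for reversed differences (11.5%) and chromosome X for lost ones (17.8%).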

How the data were processed

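Bulk mRNA libraries of docetaxel-sensitive and docetaxel-resistant PC3 and DU145 cells were analysed, 2 per group, grouped by their titles. The authors deposited raw counts per gene for each library. Per the submitters' processing notes Bowtie and the hg38 build were used, while the Bowtie version, counting tool, annotation and use of strand were not given in sources used here. Gene coordinates came with GENCODE 44, matched for 56558 of 60554 identifiers, and promoter bases with RefSeq (GRCh38.p14).

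Counts were filtered with filterByExpr, scaled by TMM and fitted over all 8 libraries with edgeR 4.0.16 (quasi-likelihood) in R 4.3.3. The contrasts were the resistant line difference, the sensitive line difference and the change between them. P-values were adjusted over all 20238 genes by the Benjamini-Hochberg method at a threshold of 0.05. The fit had 4 residual degrees of freedom, and library totals were 31685148 to 43045127 counts. The floor of 3 counts per group covers counting error only. The fit was also run on simulated counts in which few genes differed and all had the same spread, a simpler setting than these data. That run checks the code and not the classes. CPM values use the library totals after TMM scaling.

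Named genes were up to 8 per direction and class with at least 8 CPM in a group, up to 6 per list, and ABCB1, of which a part is described. Picks per class also needed libraries of the lines that did not overlap. This held in both variants for kept and reversed, in sensitive cells for lost and in resistant cells for gained picks. Lost picks needed a resistant 95% interval inside a 2-fold change, and gained picks a sensitive difference under 2-fold. The members and the 33 lists were chosen with earlier results of these data known. KRT8, ZEB2, VIM, ISG15 and PLAU were chosen after their values were seen. Some genes that the rule names are not reported here. Replicate numbers were checked for pairing: deviations of same-numbered libraries correlated by 0.0612 to 0.323 between groups, with only 2 numbers, and the numbers were not taken as pairs. Alternatives were DESeq2 1.42.0, RLE scaling, other filters, thresholds and prior counts, separate fits, a replicate block, and leaving out each library.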

Additional observations from a re-analysis of the deposited data

Results flagged for a closer look

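The line difference of the following genes differed between resistant and sensitive cells in the test of that difference (edgeR's quasi-likelihood test, adjusted p under 0.05 over all genes tested). Values are the resistant minus the sensitive log2 difference, so a positive value is a shift toward PC3. The genes were chosen partly by this same contrast, and the values describe them. The class given is that of the fit to all 8 libraries. With a single library left out, SIRT5 (7 of 8 fits), ABCB1, NCAM1 and IDI1 were not counted as reversed, ABCG1, PSMD11 and BCL2L2 not as gained, ITGB8 not as kept, and SREBF2, COBL, GPX2, ERBB3, TUBB2B, TUBA4A, PSMC6, SLC2A3 and ZIC2 not as lost in at least 1 of the 8 fits. Differences that were reversed moved toward PC3 by 11.5 for BMP7, 12.49 for HSPB8, 10.05 for CALB2, 9.44 for ESRP1, 8.66 for CDH3, 8.29 for CDH1, 8.28 for DSP and 8.47 for LAMA1. Further reversed differences moved toward PC3 by 9.11 for SLPI, 9.05 for AKR1C1, 2.59 for IDI1, 2.56 for MVD, 10.54 for RNF43, 4.68 for AXIN2, 6.16 for HOXB9 and 10.22 for NCAM1. Further reversed differences moved toward PC3 by 5.68 for CD24 and 1.83 for SIRT5. Differences that were reversed moved toward DU145 by -4.27 for THBS1, -5.23 for TGFA, -5.22 for DSC3, -4.43 for ABCB1, -9.17 for NID1, -1.31 for PSMD13, -3.18 for HBEGF and -4.42 for CDK6. Further reversed differences moved toward DU145 by -3.91 for ZEB2 and -1.46 for VIM. Differences that were lost moved toward PC3 by 7.87 for COBL, 7.77 for CTDSPL, 6.8 for ZIC2, 2.41 for ERAP2, 7.17 for GPX2, 2.65 for SREBF2, 4.7 for TUBB2B and 1.79 for ERBB3. Further lost differences moved toward PC3 by 9.84 for SLC2A3 and 1.44 for ATF4. Differences that were lost moved toward DU145 by -6.58 for IFITM3, -3.86 for IGFBP3, -4.68 for TGFB1I1, -3.24 for BMI1, -4.24 for GBP1, -2.54 for TUBA4A, -1.5 for PSMC6 and -1.36 for HDAC7. Differences that were gained moved toward PC3 by 9.34 for EYA2, 9.22 for TCN1, 7.44 for ABCG1, 2.32 for BMF, 1.22 for BCL2L2 and 2.46 for NDRG1. Differences that were gained moved toward DU145 by -8.6 for SDHAF3, -6.65 for MYL9, -7.61 for NPTX1, -6.74 for RUNDC3B, -1.26 for PSMD11 and -2.66 for AREG. Differences that were kept, but wider or narrower moved toward PC3 by 3.43 for MAL2, 1.57 for CDH11, 2.88 for COL5A1, 5.57 for ITGB8, 1.22 for LGALS3BP, 2.54 for HLA-B, 4.31 for ABCC2 and 4.3 for MAP2. Further kept differences moved toward PC3 by 2.66 for INHBA, 3.11 for LTBP1 and 2.51 for NES. Differences that were kept, but wider or narrower moved toward DU145 by -1.41 for ITGAV, -1.96 for TNFAIP2, -2.22 for MAP7D3, -0.77 for MCL1, -1.35 for EREG, -2.74 for HOXB13, -1.37 for EPAS1 and -3.09 for SLC25A40. Further kept differences moved toward DU145 by -3.05 for ISG15.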

How the results depend on the processing

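No called resistant difference or called change of the 101 genes described by class turned its sign under the alternatives run. Of these values, 1 with a library left out and 7 under other settings were no longer called. The class, which also rests on the sensitive difference, changed for 17 of these 101 genes with a single library left out. The balance of the sensitive lines turned: 5796 genes higher in PC3 and 5901 in DU145 became 5603 and 5564 with DESeq2, 4783 and 4667 without the first sensitive PC3 library, and 4841 and 4711 without the second. The median change over all genes went from 0.0289 to -0.00642 with at least 1 CPM required in 4 libraries. At an adjusted p under 0.01 the change was called for 4073 genes, with 1406 lost and 552 reversed. With a log2 difference of at least 1 required, 3441 genes were higher in resistant DU145, 3664 higher in sensitive PC3, 4149 kept and 491 reversed. Over genes of at least 10 CPM the median absolute log2 difference was 0.632 between the resistant and 0.669 between the sensitive lines. With the replicate block, 6610 genes were higher in resistant PC3, 5757 in resistant DU145 and 8270 had a called change, within 1.5 times the values without it. DESeq2 gave 5812, 5047 and 6964. Leaving out each library in turn gave 5269 to 6327 genes higher in resistant PC3, 4363 to 5341 higher in resistant DU145, 1419 to 2367 lost, 1330 to 1842 gained, 5589 to 6319 kept and 753 to 1097 reversed. Counts over gene lists with few members moved more, by over 1.5 times in 126 of the values with a library left out. With 2 libraries per group, small differences such as those of the proteasome subunits rest on single libraries.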

Other observations

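Spindle and checkpoint genes showed no side, whereas more DNA replication genes were called higher in resistant PC3 than in resistant DU145. Of 49 spindle and checkpoint genes, 12 were higher in resistant PC3 and 12 in resistant DU145, with medians of 0.126 in resistant and 0.0214 in sensitive cells. These counts followed single libraries: 5 were higher in DU145 without the first resistant DU145 library and 4 without the first resistant PC3 library, and 7 were higher in PC3 without the second resistant DU145 library and 6 without the second resistant PC3 library. Of 46 DNA replication genes, 15 were higher in resistant PC3 and 6 in resistant DU145 (10 without the first resistant PC3 library), against 14 and 4 between the sensitive lines.

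In small lineage groups the resistant calls were near even. The median over 14 neuroendocrine and neuronal genes went from -1.05 in sensitive to 0.106 in resistant cells, with 6 higher in resistant PC3 and 5 in resistant DU145. Over 17 prostate lineage genes, 7 higher in resistant PC3 and 6 in resistant DU145, it went from -0.285 to 0.659, or from 0 to 0.302 with genes absent from a group set at their detection limit.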
